A study of Mus musculus with 20 samples.

Results

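Subiculum pyramidal cells that project to the target labelled NA were compared with those that project to the target labelled PFC. The members are the 6 bulk RNA-seq libraries of these populations, 3 of each, out of 12 bulk libraries and 20 samples in all. The other 14 samples are 3 libraries each of RSC-projecting and VHN-projecting cells and 8 single-cell samples of subiculum pyramidal cells. The labels do not spell out the targets. NA and PFC are customary short forms of nucleus accumbens and prefrontal cortex, RSC of retrosplenial cortex, and VHN is kept as labelled. All populations came from mouse subiculum, and fluorescent neurons were picked by hand out of microdissected slices. The series' design text calls the 3 libraries of each population biological replicates. Strain, sex, age, the tracer that labelled the cells and the number of cells or animals pooled per library are not given in the sources used here. Treatments and transgenes are likewise not given, and no group is described as a control.

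The hippocampal formation sends most of its output to the rest of the brain through the subiculum. Subicular pyramidal cells are glutamatergic neurons whose axons reach many areas, and cells with different targets lie at different positions along its proximal to distal axis. Cells nearer to CA1 are called proximal. The accumbens and the prefrontal cortex are known targets of proximal cells, so the comparison asks what separates a pair of outputs from the same side of the structure. Genes that distinguish projection neurons elsewhere in the forebrain include transcription factors of the ETS family, channels that set firing, vesicular glutamate transporters and adhesion molecules of the synapse.

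Depth ranged from 11325171 to 18997291 gene fragments in NA libraries and from 10777271 to 14019667 in PFC libraries. Levels are CPM, fragments of a gene relative to the library total, scaled by TMM, a correction for library composition. They are not corrected for gene length. Replicates correlated at 0.819 to 0.879 (Pearson, log2 CPM across genes) among NA libraries and at 0.809 to 0.854 among PFC libraries. In a principal component analysis of the 6 libraries, NA replicate 2 stood apart on the first component (36.4% of the variance) and PFC replicate 3 on the second (24.3%). The glutamatergic marker Slc17a7 stood at 843, 928 and 718 CPM in NA replicates 1 to 3 and at 965, 1023 and 1000 CPM in PFC replicates 1 to 3, so the label of pyramidal cells fits its marker. Summed interneuron markers reached 13.6 to 18.5 CPM in NA and 7.19 to 78.6 CPM in PFC libraries, with Gad1 at most 1.93 CPM and Gad2 at most 7.39 CPM. Both of these maxima were in NA replicate 2, and Gad1 was at 0 in all PFC libraries. Of 9 interneuron markers tested, 7 had a positive log2 fold change (NA minus PFC), the median was 2.56, and 0 passed the edgeR test. Summed astrocyte markers were 357 to 684 CPM in NA and 292 to 401 CPM in PFC libraries, mostly from Slc1a2, while Gfap was at most 0.0621 CPM. All 7 astrocyte markers tested had a positive log2 fold change, with a median of 1.88, and 0 passed. Oligodendrocyte markers summed to 54.0 to 89.3 CPM in NA and 47.0 to 55.3 CPM in PFC libraries, and microglial markers to 4.82 to 38.3 and 13.2 to 31.8 CPM. The vascular list summed to 24.0 to 52.3 CPM in NA and 57.7 to 91.7 CPM in PFC libraries without overlap. Rgs5 carried most of that sum, and the endothelial gene Cldn5 and the pericyte gene Vtn were at 0 in all 6 libraries. In bulk samples, fewer cells of a type and less RNA per cell cannot be told apart.

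In the main edgeR fit, NA-projecting cells differed from PFC-projecting cells mainly by higher levels of a small set of genes. Both the size and the balance of that set depended on the method: DESeq2 called 464 genes, 151 of them higher in PFC cells, and edgeR on the 6 libraries alone called 0. The ETS factors Etv1 and Etv5, the adhesion receptor Adgra1, the adhesion molecules Ntm, Cntnap5a and Elfn1 and the vesicular glutamate transporter Slc17a6 were all higher in NA cells, by 2.36-fold to 4.79-fold. Cpne6, a calcium-dependent phospholipid-binding protein, Kcnab1, an auxiliary subunit of potassium channels, and Syn2, a synapsin of the vesicle pool, were higher in PFC cells, by 2.73-fold, 12.6-fold and 2.45-fold. Of 13916 expressed genes tested, 61 passed (0.438%; edgeR quasi-likelihood test, Benjamini-Hochberg adjusted p under 0.05). Of these, 56 were higher in NA cells (0.402% of genes tested) and 5 in PFC cells (0.0359%). In 6 further fits, each without 1 library, Etv1, Adgra1, Ntm and Cpne6 always passed. Kcnab1 lost its call in 1 of them, Etv5 and Syn2 in 4, and Cntnap5a, Elfn1 and Slc17a6 in 5. The 61 log2 fold changes had sizes of 0.50 to 6.95 with a median size of 1.26. Over all genes tested the signed log2 fold change had a median of -0.01, and 49.5% were positive. A further description was whether the 3 libraries of one population all lay above the 3 of the other: this held for each of the 61, and over all genes for 1054 that were higher in NA (7.57%) and 993 that were higher in PFC (7.14%). It uses the same values as the test, so it is no separate support for the 61 calls. Genes that passed also had many fragments behind them, with a median of 424 CPM on the higher side against 22.9 CPM over all genes. At an unadjusted p under 0.05 there were 1133 genes higher in NA and 727 higher in PFC.

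**Figure D1:**
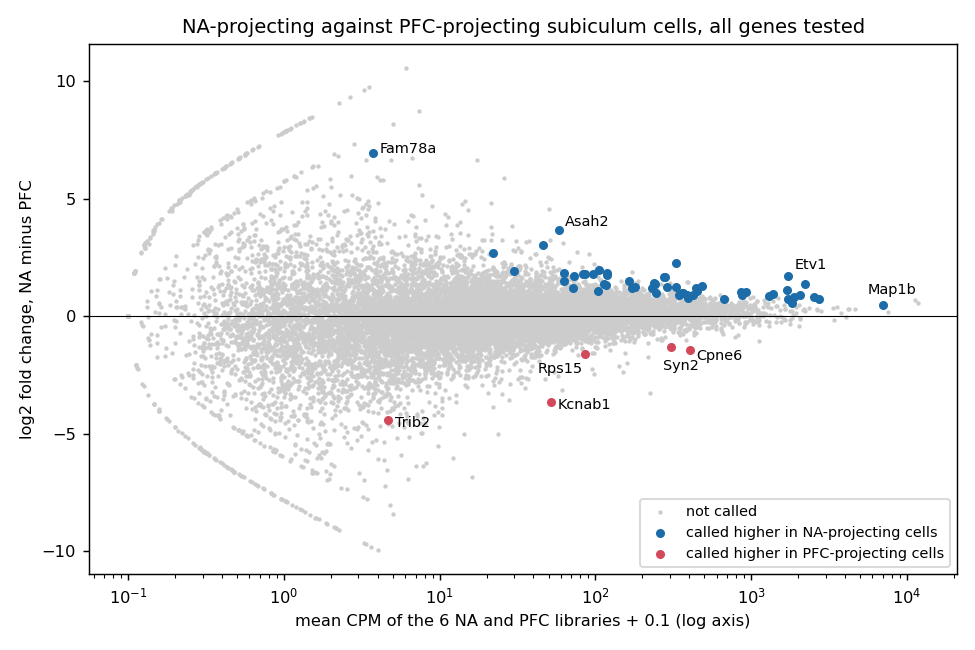
Each point is 1 of the 13916 genes tested, with its mean level over the 6 NA and PFC libraries (CPM + 0.1, log axis) on the horizontal axis and its log2 fold change, NA-projecting minus PFC-projecting, on the vertical axis. Coloured points are the 56 genes called higher in NA-projecting cells and the 5 called higher in PFC-projecting cells (edgeR adjusted p under 0.05), and most of them lie above 0.

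These calls rest on the spread within all 4 populations, since in a fit to the 6 libraries alone 0 genes passed (smallest edgeR adjusted p 0.0515, Etv1), 1081 had an unadjusted p under 0.05, and 60 of the 61 were among these with the same sign. The count was 37 without NA replicate 2, 152 without NA replicate 3, 22 without PFC replicate 2 and 29 without PFC replicate 3, and 11 of the 61 genes passed in each of the 6 fits that left out 1 library. Those 11 were Etv1, Adgra1, Map1a, Prepl, Ntm, Ldb2, Dkk3, Slc35f1, Ank2 and Cyp51, all higher in NA, and Cpne6, higher in PFC. Of these, 7 passed in every alternative other than the 6-library fit, while Adgra1, Ntm, Ank2 and Cyp51 lost their call with limma on log2(FPKM + 1). Of the 61 genes, 38 lost their call in 3 or more of the fits that left out 1 library. NA replicate 2 was the highest NA library for 40 of the 61 genes (65.6%), against 36.4% of all genes.

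The promoters of 5 called genes are printed here as examples. They are the ETS pair and Adgra1 from the NA side, Kcnab1 from the PFC side, and Cyp51. Cyp51 was chosen by the search itself, as the called gene whose promoter matched more than 1 of the motifs. Cpne6 had no promoter in the source used. The sequences are from RefSeq (GRCm38.p6, mouse), 5′ to 3′, and cover the 150 bases before the most upstream listed start. Capitals mark motif matches.
Etv1 (chr12:38779932-38780081, plus strand): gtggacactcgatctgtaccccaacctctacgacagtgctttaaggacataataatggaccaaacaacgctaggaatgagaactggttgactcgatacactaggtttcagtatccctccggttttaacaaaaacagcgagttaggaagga
Etv5 (chr16:22439571-22439720, minus strand): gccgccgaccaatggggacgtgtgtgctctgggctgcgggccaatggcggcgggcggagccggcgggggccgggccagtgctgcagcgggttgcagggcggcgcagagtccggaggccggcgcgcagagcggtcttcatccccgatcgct
Adgra1 (chr7:139834024-139834173, plus strand): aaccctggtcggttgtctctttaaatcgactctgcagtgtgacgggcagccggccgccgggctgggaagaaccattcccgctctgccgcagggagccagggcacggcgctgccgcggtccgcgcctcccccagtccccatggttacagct
Cyp51 (chr5:4104698-4104847, minus strand): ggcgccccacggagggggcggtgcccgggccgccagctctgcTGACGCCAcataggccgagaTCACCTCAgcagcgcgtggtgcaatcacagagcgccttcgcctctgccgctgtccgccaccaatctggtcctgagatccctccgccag
Kcnab1 (chr3:64949062-64949211, plus strand): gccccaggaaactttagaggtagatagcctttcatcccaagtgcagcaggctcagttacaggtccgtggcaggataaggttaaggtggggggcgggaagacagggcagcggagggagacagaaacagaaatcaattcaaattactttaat
Of the 61 called genes, 48 had a promoter in the RefSeq table, and the 250 bases before the start were searched on both strands for 3 motifs. CCGGAAG, an ETS core, was in 6.91% of 32851 promoters, or at 7.83% of 27025 genes, and in 2 of the 48, Elfn1 and Map1b. TGACGNCA, which resembles the site of CREB and ATF factors, was in 2.75% of promoters, or at 3.16% of genes, and in 4 of the 48, Cyp51, Hspa4, Ogdh and Osbpl3. TCACCNCA, which resembles a sterol-response element, was in 3.61% of promoters, or at 4.18% of genes, and in 1 of the 48, Cyp51. In Cyp51 the capitals are the CREB-like and the sterol-type match, in that order. None of the other 4 windows printed held a match to these letters.

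Among 67 transcription factors tested, Etv1, Etv5 and Ldb2 were higher in NA cells, none was higher in PFC cells, and the median log2 fold change was -0.10. These calls are 4.48% of the list, beside 0.438% of all genes tested. Neither this list nor those below were matched to all genes by level, and called genes had high levels. Etv1, an ETS activator that marks layer 5 projection neurons in neocortex, stood at 2794, 2457 and 2616 CPM in NA replicates 1 to 3 and at 771, 562 and 1099 CPM in PFC replicates 1 to 3. The lowest NA library was thus far above the highest PFC library, and the log2 fold change was 1.69 ± 0.18 (SE; edgeR adjusted p = 0.000629, n = 3 and 3). Etv5, the close relative of Etv1 and a target of FGF signalling in many tissues, stood at 410, 446 and 363 CPM against 257, 125 and 135 CPM (log2 fold change 1.24 ± 0.255, SE; edgeR adjusted p = 0.0437). PFC replicate 1 was the highest PFC library for Etv5 and PFC replicate 3 for Etv1. Ldb2, an adaptor that bridges LIM-homeodomain factors, stood at 686, 644 and 526 CPM against 274, 226 and 304 CPM (log2 fold change 1.21 ± 0.18, SE; edgeR adjusted p = 0.00683). Etv5 lost its call without NA replicate 1 or 2 or PFC replicate 2 or 3, while Etv1 and Ldb2 kept theirs without any 1 library. Satb1, a chromatin organiser, was the factor next in order of adjusted p (0.0841, edgeR; log2 fold change 0.93), and it was picked out after its values were seen.

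Adgra1, an orphan adhesion G protein-coupled receptor of neurons, was the gene with the next lowest adjusted p after Etv1. It stood at 494, 382 and 387 CPM in NA libraries and at 170, 105 and 121 CPM in PFC libraries, a 3.19-fold difference (log2 fold change 1.67 ± 0.19, SE; edgeR adjusted p = 0.000768). Of 58 synaptic adhesion genes tested, 3 were higher in NA (5.17%, beside 0.438% of all genes), 0 in PFC, and the median log2 fold change was 0.11. Ntm, neurotrimin, a GPI-anchored immunoglobulin protein of the axon surface, was 4.79-fold higher in NA cells, at 456, 860 and 313 CPM against 103, 86.1 and 151 CPM (log2 fold change 2.26 ± 0.33, SE; edgeR adjusted p = 0.00683). NA replicate 2 was the highest, and without it Ntm still passed. Cntnap5a, of the contactin-associated family, stood at 184, 198 and 119 CPM against 72.3, 64.7 and 60.2 CPM (log2 fold change 1.35; edgeR adjusted p = 0.0316). Elfn1, a postsynaptic leucine-rich repeat protein that recruits presynaptic metabotropic glutamate receptors, stood at 56.2, 38.9 and 47.0 CPM against 24.8, 5.81 and 7.31 CPM (log2 fold change 1.91; edgeR adjusted p = 0.0495). Both calls were marginal: each was lost in 5 of the 6 fits without 1 library, Cntnap5a in all but the one without NA replicate 3 and Elfn1 in all but the one without PFC replicate 1. Of 55 axon guidance genes, 0 passed the edgeR test, 12 had an unadjusted p under 0.05 and DESeq2 called 4. For 26 cadherins these numbers were 0, 5 and 3. With 0.438% of all genes passing edgeR, 0 calls in lists of these sizes say little about them. An unadjusted p under 0.05 was held by 13.4% of all genes. limma voom called 1 guidance gene and 0 cadherins, and limma on FPKM 0 of either. Among the guidance genes, Sema6d, a transmembrane semaphorin, came closest (edgeR adjusted p = 0.109; 456, 311 and 377 CPM against 114, 79.7 and 247 CPM). Nrp2, a co-receptor for class 3 semaphorins, lay the other way without overlap, at 3.35, 2.89 and 11.5 CPM against 40.1, 30.6 and 54.1 CPM (edgeR adjusted p = 0.173). Both were picked out after their values were seen.

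Potassium channel genes passed in both directions. Of 49 tested, Kcnf1 was higher in NA and Kcnab1 in PFC, with a median log2 fold change of 0.13. These calls are 4.08% of the list, beside 0.438% of all genes tested. Kcnab1, the Kvbeta1 subunit that speeds channel inactivation, stood at 13.9, 1.93 and 7.03 CPM in NA libraries and at 64.3, 78.0 and 147 CPM in PFC libraries, a 12.6-fold difference (log2 fold change -3.65 ± 0.61, SE; edgeR adjusted p = 0.0129). The call was lost without PFC replicate 3, the library with the highest level. Kcnf1, a silent Kv subunit that modifies Kv2 channels, stood at 143, 272 and 136 CPM against 43.1, 47.8 and 71.4 CPM (log2 fold change 1.76 ± 0.32, SE; edgeR adjusted p = 0.0202) and lost its call without NA replicate 2, PFC replicate 1 or PFC replicate 2. Calcium channel and TARP genes held 1 call of 20 (5.0%, beside the same 0.438%). This was Cacna1h, the low-threshold T-type channel Cav3.2, at 180, 390 and 158 CPM against 85.5, 76.4 and 96.3 CPM (log2 fold change 1.49, edgeR adjusted p = 0.0461). NA replicate 2 held its highest value, and the call was lost without that library or any 1 PFC library. Fgf11, an intracellular FGF homologous factor of the family that binds sodium channels, stood at 87.6, 185 and 179 CPM against 63.8, 48.2 and 17.6 CPM (log2 fold change 1.80; edgeR adjusted p = 0.049), and its call was lost without NA replicate 2 or 3 or PFC replicate 2 or 3.

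**Figure D2:**
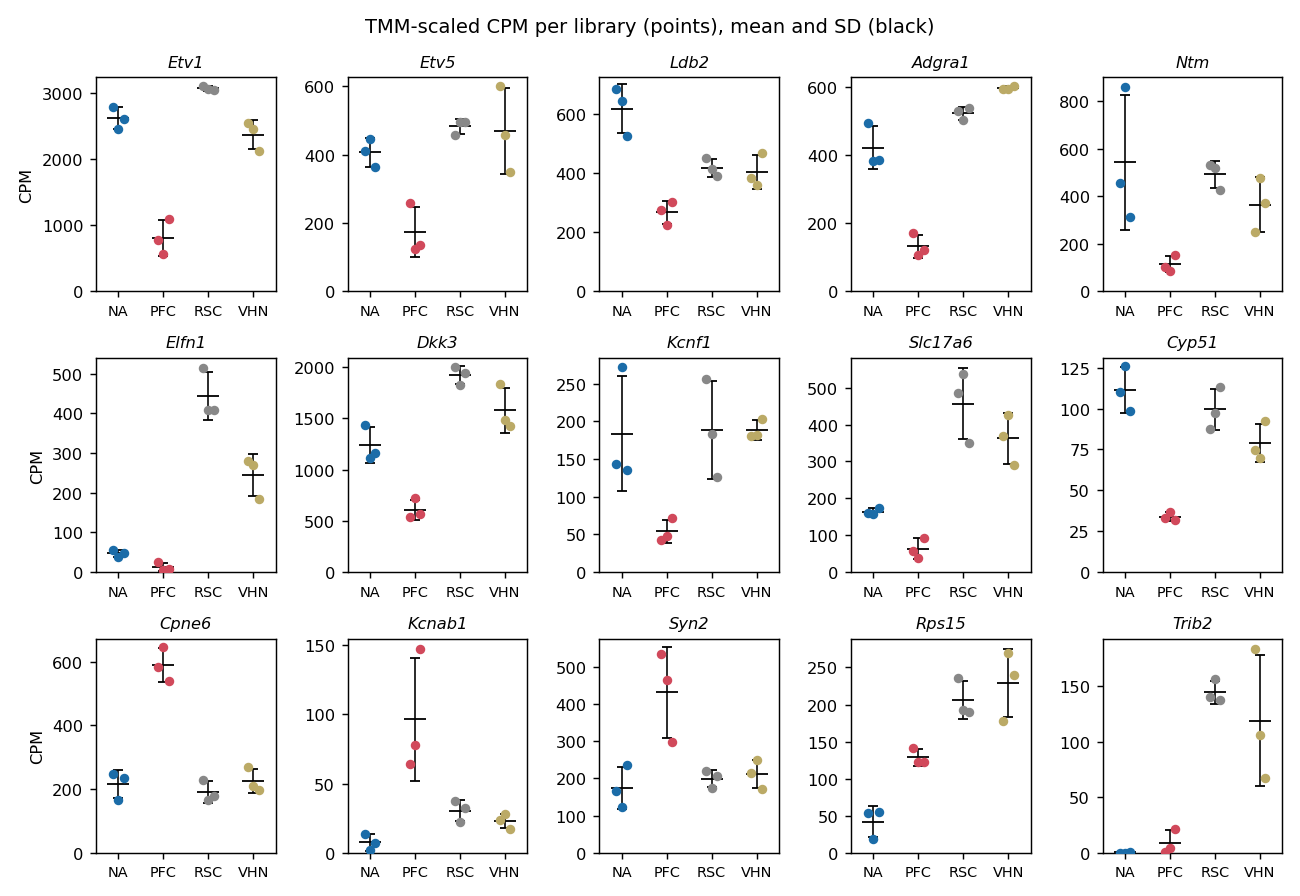
CPM of 15 called genes in each bulk library of NA-projecting, PFC-projecting, RSC-projecting and VHN-projecting cells, 1 panel per gene with its own axis from 0. Points are libraries and black marks give the mean and SD of 3; NA and PFC points do not overlap in any panel, and for Etv1, Adgra1, Dkk3 and Cyp51 the PFC points lie below all 9 others.

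Transmitter genes held calls in both directions. Among 42 transporters and release proteins, Slc17a6 and Sv2b were higher in NA, Syn2 was higher in PFC, and the median log2 fold change was 0.32. These calls are 7.14% of the list, beside 0.438% of all genes tested. Slc17a6, the vesicular glutamate transporter VGLUT2 that is better known from thalamic neurons, stood at 159, 157 and 174 CPM against 57.2, 37.9 and 93.4 CPM (log2 fold change 1.38 ± 0.28, SE; edgeR adjusted p = 0.0382). The NA libraries were tight and the PFC libraries spread, and the call was lost in 5 of the 6 fits without 1 library, the exception being PFC replicate 3. Sv2b, a vesicle glycoprotein, stood at 2490, 3181 and 2380 CPM against 1661, 1431 and 1194 CPM (log2 fold change 0.91 ± 0.16, SE; edgeR adjusted p = 0.0174), and lost its call without NA replicate 2, PFC replicate 2 or PFC replicate 3. Syn2 stood at 167, 124 and 236 CPM against 534, 464 and 297 CPM (log2 fold change -1.29 ± 0.26, SE; edgeR adjusted p = 0.0382), and the call was lost without NA replicate 1 or 2 or PFC replicate 1 or 2. Of 25 glutamate receptor genes, 31 receptors for monoamines, acetylcholine, adenosine and cannabinoids, and 26 neuropeptide, orphan and tyrosine kinase receptors, 0 passed the edgeR test. At an unadjusted p under 0.05 there were 7, 6 and 0 of them, and DESeq2 called 1, 1 and 0, limma voom 1, 0 and 0, and limma on FPKM 0 in each list. Over all genes tested 0.438% passed the edgeR test and 13.4% had an unadjusted p under 0.05. Finding 0 calls in lists of these sizes therefore says little about the receptors.

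Calcium-binding proteins also split. Of 36 tested, Vsnl1 was higher in NA and Cpne6 in PFC, and the median log2 fold change was -0.03. These calls are 5.56% of the list, and the 1 call among peptides and secreted signals below is 3.23% of its list. Over all genes tested the share was 0.438%. Cpne6, a copine of dendritic spines, was the PFC-side gene with the lowest adjusted p. It stood at 249, 165 and 235 CPM in NA libraries and at 583, 647 and 540 CPM in PFC libraries (log2 fold change -1.45 ± 0.21, SE; edgeR adjusted p = 0.00683). The PFC libraries lay within a narrow range, each well above the highest NA library, and the call was kept without any 1 library. Vsnl1, the calcium sensor visinin-like 1, stood at 3856, 3874 and 2485 CPM against 2139, 2158 and 1860 CPM (log2 fold change 0.73 ± 0.15, SE; edgeR adjusted p = 0.0437) and passed in 1 of the 6 fits without 1 library, the one without NA replicate 3. Among 31 peptides and secreted signals, Dkk3, a secreted glycoprotein of the dickkopf family, was higher in NA at 1438, 1116 and 1161 CPM against 537, 721 and 563 CPM (log2 fold change 1.03 ± 0.15, SE; edgeR adjusted p = 0.00696), and kept its call without any 1 library. The secretory granule protein Scg2 was next in that list, at 385, 982 and 354 CPM against 170, 205 and 248 CPM (log2 fold change 1.47; edgeR adjusted p = 0.0585), and was picked out after its values were seen. Pcsk5, a proprotein convertase that cleaves secreted precursors, stood at 32.0, 66.8 and 15.7 CPM against 4.76, 5.95 and 7.02 CPM (log2 fold change 2.69; edgeR adjusted p = 0.0341), with its call lost without NA replicate 2 or any 1 PFC library.

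The activity and stress lists held 2 calls of 27 genes (7.41%) and 1 of 20 (5.0%), each higher in NA, beside 0.438% of all genes tested. Of the activity-regulated genes, Fosl2, an AP-1 subunit, and Ier5, an immediate early gene, were higher in NA, while the median log2 fold change of the list was -0.31. Fosl2 stood at 269, 243 and 206 CPM against 118, 82.0 and 112 CPM (log2 fold change 1.21; edgeR adjusted p = 0.0341), and Ier5 at 85.7, 114 and 98.7 CPM against 37.1, 44.4 and 46.9 CPM (log2 fold change 1.22; edgeR adjusted p = 0.0316). Neither call held without NA replicate 2, PFC replicate 1, PFC replicate 2 or PFC replicate 3, and that of Fosl2 was also lost without NA replicate 1. Among 20 stress genes, Atf4, the effector of the integrated stress response, stood at 106, 215 and 75.5 CPM against 38.7, 47.2 and 29.3 CPM (log2 fold change 1.78; edgeR adjusted p = 0.0461) and passed in 1 of the 6 fits without 1 library, the one without NA replicate 3. The stress list summed to 6949 to 8128 CPM in NA and 5408 to 5670 CPM in PFC libraries, without overlap, with a median log2 fold change of 0.30 over its members. Its part in the other differences was not tested.

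Lipid and ribosomal lists each held 1 call, or 3.23% and 1.92% of their genes, beside 0.438% of all genes tested. Cyp51, the demethylase of sterol synthesis, was the 1 call of 31 sterol and lipid synthesis genes, at 110, 126 and 98.3 CPM against 32.9, 36.8 and 31.7 CPM (log2 fold change 1.72 ± 0.27, SE; edgeR adjusted p = 0.0109), and it was kept without any 1 library. The list as a whole had a median log2 fold change of 0.02. The following 3 genes are not in that list and were named for the size of their change. Asah2, a neutral ceramidase, stood at 38.3, 251 and 33.8 CPM against 5.45, 9.21 and 10.9 CPM (log2 fold change 3.66 ± 0.665, SE; edgeR adjusted p = 0.0202). Osbpl3, an oxysterol-binding relative, stood at 44.0, 176 and 24.6 CPM against 6.02 to 14.2 CPM (log2 fold change 3.01; edgeR adjusted p = 0.0341). Tnfaip8l3, which carries phosphoinositides, stood at 198, 142 and 165 CPM against 41.2, 63.3 and 25.6 CPM (log2 fold change 1.95; edgeR adjusted p = 0.0437). NA replicate 2 carried the mean of Asah2 and Osbpl3, and each lost its call without it or without any 1 PFC library, while Tnfaip8l3 passed only without NA replicate 3 among those 6 fits. Of 52 ribosomal protein genes, Rps15 was higher in PFC at 53.5, 18.2 and 54.5 CPM against 142, 122 and 122 CPM (log2 fold change -1.61 ± 0.33, SE; edgeR adjusted p = 0.0437), and lost its call without NA replicate 1 or any 1 PFC library. In that list 38 members had a negative log2 fold change and the median log2 fold change was -0.30.

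The rule for named genes also took genes that belong to none of these lists. Map1a, a microtubule-associated protein of dendrites, stood at 2249, 2742 and 1961 CPM against 1021, 1268 and 898 CPM (log2 fold change 1.13 ± 0.15, SE; edgeR adjusted p = 0.00389). Prepl, a serine hydrolase related to prolyl endopeptidase, stood at 1948, 1778 and 1696 CPM against 1017, 796 and 1012 CPM (log2 fold change 0.94 ± 0.13, SE; edgeR adjusted p = 0.00683). Slc35f1, a member of a solute carrier family, stood at 622, 666 and 557 CPM against 264, 312 and 272 CPM (log2 fold change 1.12; edgeR adjusted p = 0.00833). For these 3 genes the call was kept without any 1 library. Cspg5, the brain proteoglycan neuroglycan C, was higher in NA by 3.43-fold, Rap1gap2, which switches off the GTPase Rap1, by 3.61-fold, and the membrane protein gene Tmem47 by 3.64-fold (edgeR adjusted p = 0.0129, 0.0184 and 0.0258). Cspg5 lost its call without PFC replicate 2, Rap1gap2 without NA replicate 1, PFC replicate 2 or PFC replicate 3, and Tmem47 without NA replicate 2 or any 1 PFC library.

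The other 27 called genes are outside that rule and were picked out after their values were seen. Of these, 26 were higher in NA. They include Map1b, Ank2, Ank3, Kif1a, Kif21a, Tubb4a and Sept7, which encode a microtubule-associated protein, the spectrin adaptors ankyrin-B and ankyrin-G, a pair of kinesin motors, a tubulin and a septin. No list fixed for these genes was tested. Map1b had the smallest called change of all (log2 fold change 0.50), at 8451, 8497 and 7612 CPM against 6016, 5701 and 5676 CPM, a tight difference between highly covered libraries. Ank2 (log2 fold change 0.81), Ank3 (0.74), Kif1a (0.58), Kif21a (0.77), Tubb4a (1.04) and Sept7 (1.28) were higher in NA too. Of the 6 fits without 1 library, Ank3, Kif1a and Kif21a lost their call in 5, Sept7 in 4, Tubb4a in 2, Map1b in 1 and Ank2 in 0. Rab3c, a vesicle GTPase, was higher in NA by a log2 fold change of 0.74, and lost its call in 4 of the 6 fits without 1 library. Npm1, which encodes nucleophosmin of the nucleolus, was higher in NA by a log2 fold change of 1.66, and its call was lost without PFC replicate 3. Rrp1 (log2 fold change 1.21) lost its call without PFC replicate 2. The row of Cdr1 stood at 3492, 3572 and 2470 CPM against 1267, 1342 and 1083 CPM, but it overlaps C230004F18Rik on the other strand, and whether reads were counted by strand is not given. The same holds for 14 of the 61 genes that share exonic bases with a gene on the opposite strand, Map1a, Prepl, Cyp51, Ank2, Sv2b, Syn2, Kcnab1 and Cacna1h among them, so their values may include reads of a partner. Fam78a had 2 fragments in all PFC libraries together and 3.64 to 11.5 CPM in NA libraries, a ratio of 149 with a 95% counting interval of 40.9 to 1232. That interval pools the libraries and leaves out the spread between them. The call of Fam78a was lost in 4 of the 6 fits without 1 library. Its exons overlap those of Gm16534 on the same strand and Nup214 on the other. Trib2, a pseudokinase gene, was the fifth gene higher in PFC. It stood at 0.248, 0.214 and 0.677 CPM in NA and at 0.693, 3.88 and 21.8 CPM in PFC libraries (edgeR adjusted p = 0.0437), so PFC replicate 3 set its mean and PFC replicate 1 was next to the NA libraries. The NA libraries together held 19 fragments of Trib2, and its call was lost in 4 of the 6 fits without 1 library.

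The RSC-projecting and VHN-projecting libraries were then set beside these genes. Of the 56 genes higher in NA, 55 had their lowest population mean in PFC cells, Cdr1 being the other one. For 45 of them (80.4%), all 3 PFC libraries lay below all 9 other libraries, against 36.8% of the 1054 genes whose NA libraries all lay above the PFC libraries. Only 12 (21.4%) had all NA libraries above all 9 others, against 16.9% of the 1054. Etv1 is of the first kind, with means of 3078 CPM in RSC and 2378 CPM in VHN cells beside 2622 CPM in NA and 811 CPM in PFC cells. So are Adgra1 (523 CPM in RSC and 597 CPM in VHN cells), Etv5 (483 and 469 CPM) and Map1a (2888 and 2063 CPM). For Slc17a6 and Elfn1 the NA level was itself low beside these, with 457 and 362 CPM of Slc17a6 and 442 and 244 CPM of Elfn1 in RSC and VHN cells. Genes with NA libraries above all others included Mapk8ip2, Prepl, Tmem47, Jcad, Slc35f1, Ldb2, Arhgap32, Rit2, Tubb4a, Tnfaip8l3 and Cdr1. Of the 5 genes higher in PFC, Cpne6, Kcnab1 and Syn2 had all PFC libraries above the 9 others. For Cpne6, RSC cells had 191 CPM and VHN cells 226 CPM, close to the 216 CPM of NA cells. Rps15 and Trib2 were highest outside both groups, at 206 and 229 CPM for Rps15 and 144 and 119 CPM for Trib2 in RSC and VHN cells. These placements are descriptions with no test, and the RSC and VHN libraries also entered the shared estimate of the spread.

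**Figure D3:**
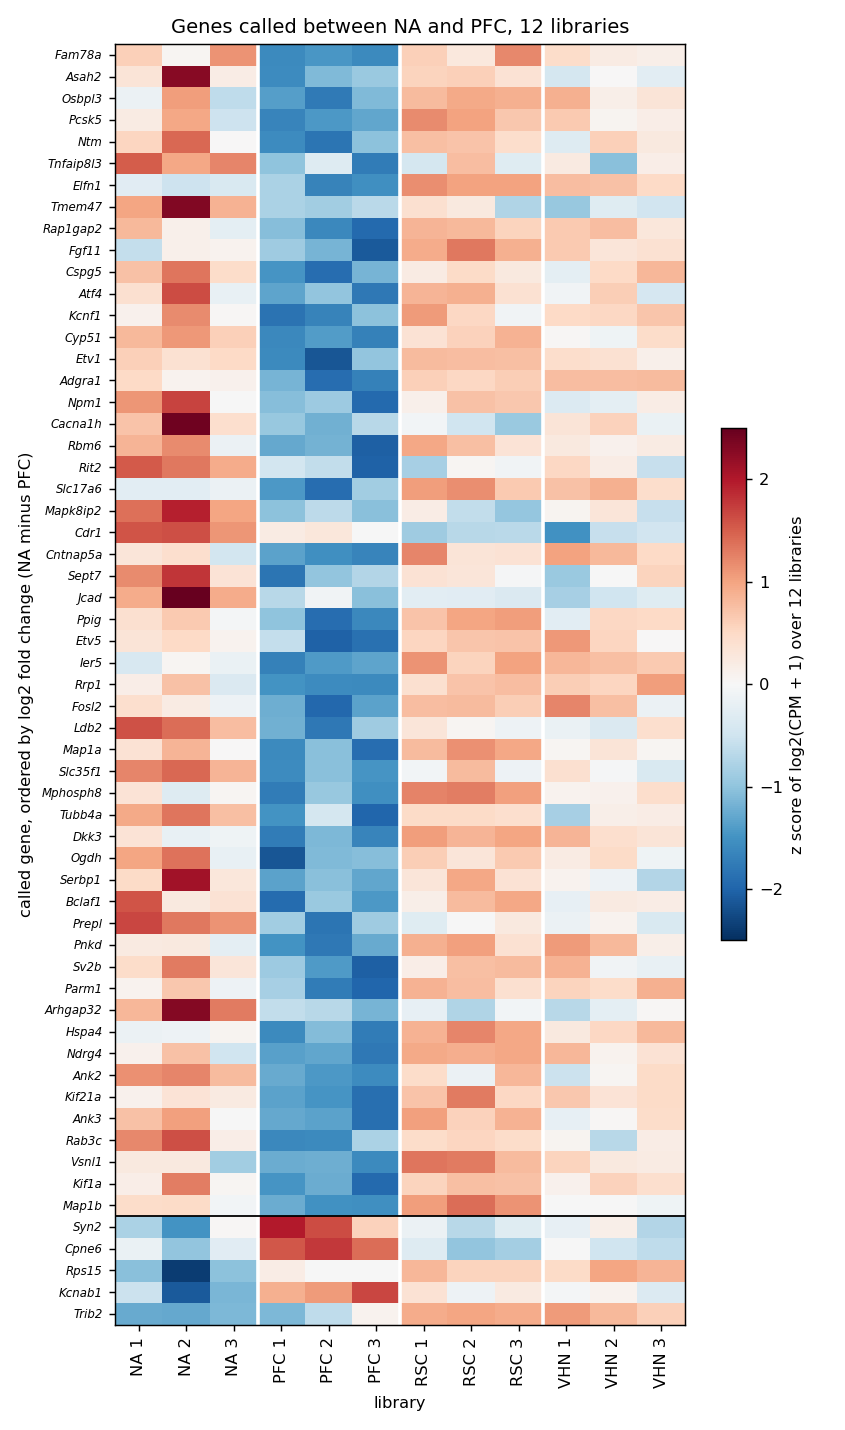
Called genes (rows, ordered by log2 fold change, NA minus PFC) in the 12 bulk libraries (columns), coloured by the z score of log2(CPM + 1) over the 12 libraries. Above the black line are genes higher in NA-projecting cells, and in most of these rows, Etv1 and Adgra1 among them, the 3 PFC-projecting columns are the lowest of the 12.

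Several markers that earlier results of these data had brought up did not pass between NA and PFC cells. Penk, the enkephalin precursor, stood at 1.49, 0.535 and 1.04 CPM in NA libraries and at 0.779, 32.1 and 25.2 CPM in PFC libraries (log2 fold change -4.22; edgeR adjusted p = 0.23), and was at 0 in RSC and VHN libraries. DESeq2 called it at an adjusted p of 0.0375. PFC replicate 1 was thus with the NA libraries and PFC replicates 2 and 3 stood above them. Markers of the neighbouring field CA1 were mixed in this respect, and PFC replicate 1 lay within the NA range or below it for Zbtb20 and Fibcd1. Zbtb20, a transcription factor of hippocampal pyramidal cells, stood at 26.6, 33.8 and 65.2 CPM against 48.9, 551 and 608 CPM (log2 fold change -3.26; edgeR adjusted p = 0.107), and Fibcd1 at 14.6, 25.9 and 14.2 CPM against 12.2, 73.9 and 96.6 CPM (log2 fold change -1.74; edgeR adjusted p = 0.262). Wfs1 and Man1a had PFC replicate 1 above every NA library instead. Wfs1, another CA1 gene, stood at 67.2, 109 and 57.8 CPM against 135, 358 and 203 CPM, without overlap, at an edgeR adjusted p of 0.0996. Ndst4, also on the CA1 list, lay the other way (log2 fold change 0.90). Of the 13 CA1 markers tested 0 passed in edgeR, 6 had an unadjusted p under 0.05, DESeq2 and limma voom called 3 each and limma on FPKM 0. Of these 13, 9 were negative, and the median log2 fold change was -1.04; their summed level was 2265 to 2456 CPM in NA and 2404 to 3727 CPM in PFC libraries. Whether CA1-type cells or proximal position have a part in the calls was not tested. Without PFC replicate 3, edgeR called 1 CA1 marker, higher in NA. Markers of CA3 and CA2 and of the dentate gyrus had medians of -1.0 and -1.32 over 13 and 7 genes, and 0 passed in edgeR; 3 and 2 had an unadjusted p under 0.05, and DESeq2 called 1 and 0, with 0 in either limma fit. Htr2c, a serotonin receptor, stood at 120, 35.9 and 87.5 CPM against 142, 176 and 216 CPM (log2 fold change -1.13; edgeR adjusted p = 0.351). The receptor tyrosine kinase gene Kit (log2 fold change -0.18; adjusted p = 0.949), the mitochondrial leucyl-tRNA synthetase gene Lars2 (0.56; 0.413), the calbindin gene Calb1 (-1.04; 0.709) and the neurotensin gene Nts (0.18; 0.868) did not pass either in edgeR. Fn1, the matrix gene fibronectin, was at 0.0621, 1.82 and 14.4 CPM in NA and at 0.0866, 0 and 0 CPM in PFC libraries (edgeR adjusted p = 0.0515). In RSC and VHN libraries it stood at 566, 572 and 381 CPM and at 615, 574 and 285 CPM, far above both. Of the 31 matrix genes tested, 0 passed in edgeR, 12 had an unadjusted p under 0.05, DESeq2 called 5, limma voom 1 and limma on FPKM 0. For 45 genes of oxidative phosphorylation these numbers were 0, 9, 3, 0 and 2, and for 37 aminoacyl-tRNA synthetase genes 0, 5, 0, 1 and 0. Over all genes tested 0.438% passed in edgeR and 13.4% had an unadjusted p under 0.05. The 0 edgeR calls in lists of these sizes therefore carry little weight.

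The single-cell wells give the same genes cell by cell, without projection labels. Of 384 wells on 4 plates, 348 passed a minimum of 1000 genes with a count. They stand for 1 pooled sample, and the median well held 112379 counts from 5222 genes. Etv1 had a count in 90.2% of these wells (exact 95% interval 86.6 to 93.1%), Adgra1 in 81.3% (76.8 to 85.3%), Slc17a6 in 57.8% (52.4 to 63.0%) and Elfn1 in 28.4% (23.8 to 33.5%). Of the PFC-side genes, Cpne6 had a count in 92.0% (88.6 to 94.6%), Syn2 in 93.4% (90.2 to 95.8%) and Kcnab1 in 19.8% (15.8 to 24.4%). Penk was seen in 2.01% (0.812 to 4.1%). These intervals cover counting error only. Across wells the CPM of Etv1 ranked with that of Adgra1 (Spearman rho 0.62; 0.56 to 0.68 within plates), Slc17a6 (0.59; 0.55 to 0.62), Dkk3 (0.51; 0.45 to 0.55) and Etv5 (0.48; 0.39 to 0.53). Among 4275 genes seen in at least 50% of wells, the rho with Etv1 had a median of 0.07, and Adgra1 was at rank 5, after Lxn, Ckmt1, Ldhb and Nts. In bulk, Nts had means of 21.3 CPM in NA and 18.8 CPM in PFC cells, but 332 CPM in RSC and 293 CPM in VHN cells. A high rho with Etv1 thus need not follow the NA and PFC outputs. Of 41 genes called higher in NA cells, 37 had a positive rho, as had 76.4% of all 4275 genes, 21 were at or above 0.3, and the median was 0.32, whereas 4.3% of all genes reached 0.3. The 4275 genes were not matched to the called genes by level. With each other, rather than with Etv1 alone, the 42 NA-side genes (Etv1 included) ranked at a median rho of only 0.14 (861 pairs, -0.23 to 0.62). Cpne6 (-0.04; -0.22 to 0.16 within plates), Rps15 (-0.13; -0.27 to -0.04) and Syn2 (-0.17; -0.24 to -0.1), on the PFC side, were not positive over all wells. The sign of Cpne6 thus differed between plates. Kcnab1 and Trib2, with a count in 19.8% and 20.4% of wells, fell short of the 50% needed. Of the 41 genes on the NA side, Npm1 (-0.11), Serbp1 (-0.11), Ank2 (-0.09) and Rrp1 (-0.06) had a negative rho. These are descriptions across cells that share plates and depth. The called genes ranked with the total count of a well at a median rho of 0.17, and the wells are not split by output. Some kept wells, Q5_E05 and Q6_A06 among them, had 0 CPM of Etv1, Adgra1, Slc17a6, Cpne6 and Syn2 alike. Their effect on rho was not tested.

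**Figure D4:**
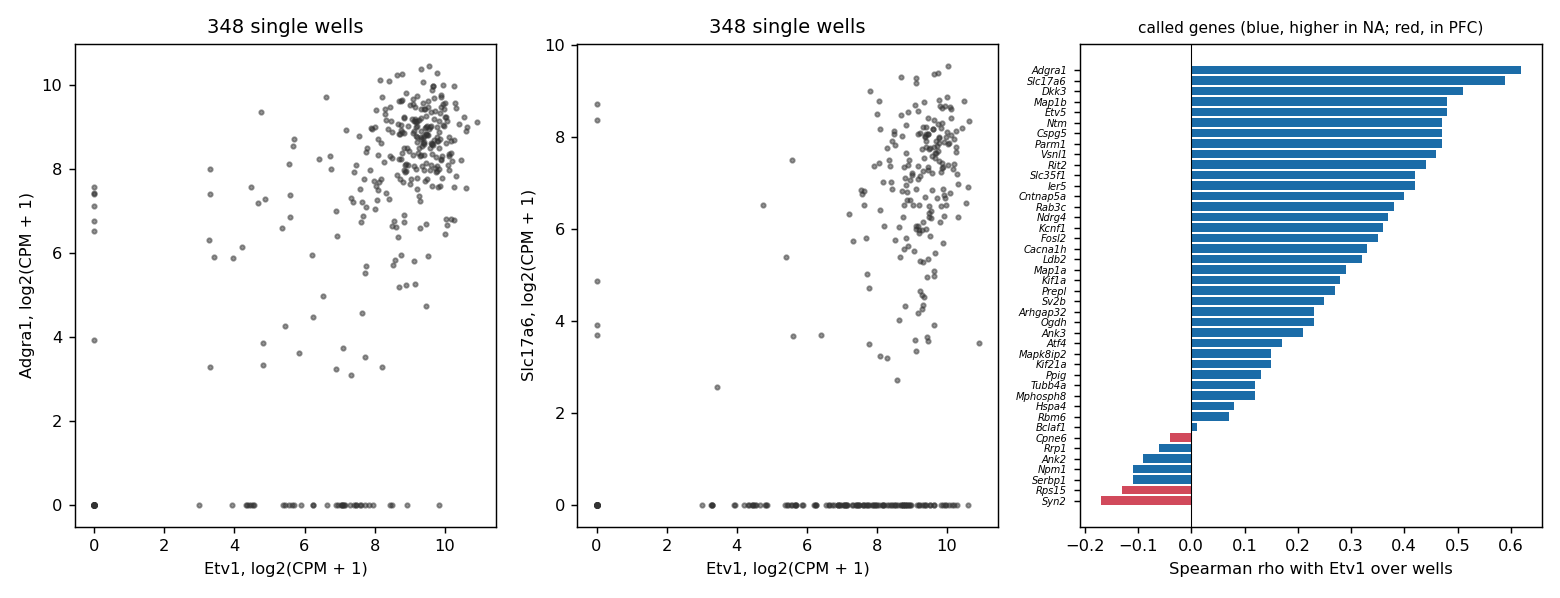
Left and middle, 348 single-cell wells as points, with log2(CPM + 1) of Etv1 against that of Adgra1 and of Slc17a6; right, bars of Spearman rho with Etv1 over wells for called genes seen in at least 50% of wells, blue for genes higher in NA-projecting and red for genes higher in PFC-projecting cells. Adgra1 and Slc17a6 have the largest rho (0.62 and 0.59), and the bars of Cpne6, Rps15 and Syn2 are below 0.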

How the data were processed

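Per the file headers, bulk values are Cuffdiff output with 1 line for each gene and library. The authors' deposited raw fragments, which are not normalized, are expected counts; 8.51% of those above 0 were not whole (tolerance 1e-06), and all were rounded. The authors also deposited FPKM values, used in 1 alternative. The single-cell table holds deposited counts per gene and well. The build was mm9 per the submitters' processing notes; aligner, annotation, strand setting and handling of reads shared between gene copies are not given in the sources used here, so multicopy and overlapping genes are uncertain. Replicate numbers start at 0 in the table and at 1 in the labels, and were taken to run in the same order, which affects only a library's name.

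Of 37607 gene rows, 32894 matched a symbol, and 92 spike-in rows were at 0. With edgeR 4.0.16, filterByExpr (smallest count 10) left 13916 genes, TMM gave the scaling, and 1 quasi-likelihood model was fitted to the 12 bulk libraries (8 residual degrees of freedom; common BCV, the biological coefficient of variation, 0.736). The p-values were adjusted over all genes by Benjamini-Hochberg. Adjusted p-values below are from this two-sided test unless DESeq2 1.42.0 or limma 3.58.1 is named. Folds are ratios of mean CPM, and log2 fold changes come from the fit. Each SE is the size of the log2 fold change divided by the square root of the quasi-likelihood F statistic. It therefore rests on the spread estimated over all 12 bulk libraries, not on the 3 and 3 libraries alone. The fit code was also run on simulated data. These had the same dispersion for every gene, a smaller spread than the real libraries and changes larger than the median called size. That run therefore does not vouch for the calls made here. Same-numbered libraries did not deviate together (correlations -0.02, -0.05 and -0.06), and the main fit did not pair them. With 3 libraries a group this check cannot exclude shared animals or days, which the labels do not give. P-values measure the spread between these libraries.

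Named genes are, per direction, the 12 largest changes and the 8 lowest adjusted p among called genes with a symbol, separate NA and PFC libraries and a mean of 10 CPM or more in the higher group, then up to 4 called members per list, and Penk, Htr2c, Etv1, Kit, Lars2, Calb1 and Nts. Genes, lists and tests were chosen with earlier results of these data known. Of 34 lists, 15 held a call. Wells with at least 1000 detected genes were kept as 1 pooled sample, with no doublet caller, and the share of wells with a count has an exact binomial interval. Alternatives were other filters, scalings and tools, the 6 libraries alone, a replicate block, and leaving out libraries. Some genes that were tested are not reported here.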

Additional observations from a re-analysis of the deposited data

How the results depend on the processing

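The main counts were 61 called genes, 56 higher in NA and 5 in PFC, 44 with a log2 change of 1 or more in size; the values below follow that order. With no filter on low counts they were 514, 394, 120 and 398 (21094 genes tested), and with DESeq2 464, 313, 151 and 371. With library totals only they were 23, 20, 3 and 15, and this scaling moved the median log2 fold change of all genes to -0.15. With the 6 libraries only they were 0, 0, 0 and 0. The stricter filter gave 87 calls, 73 and 14; upper quartile factors 49, 46 and 3; RLE size factors 50, 45 and 5; limma on log2(FPKM + 1) 45, 32 and 13; limma voom with quality weights 97, 66 and 31; and leaving out NA replicate 2 and PFC replicate 3 together 41, 33 and 8. The share of calls higher in NA was 91.8% in the main fit, 76.7% with no filter, 67.5% with DESeq2, 71.1% with limma on FPKM, 68.0% with voom and 80.5% without those 2 libraries. Leaving out 1 library at a time gave 22 to 152 calls, 20 to 125 higher in NA, 2 to 27 higher in PFC, and 18 to 123 with the larger change. The replicate block gave 52 calls, 48 higher in NA and 4 in PFC, with 0 NA libraries correlating best with the PFC library of their own number. Of the 61 genes, the calls shared were 61 with no filter and with the stricter filter, 60 with DESeq2, 50 with RLE, 48 with upper quartile, 45 with the block, 42 with voom, 22 with library totals, 21 without both libraries and 19 with limma on FPKM, and 18 to 57 without 1 library. All 61 genes kept their sign in each alternative that tested them (1 was not tested in the 6-library fit). Of 678 values for the 40 named genes, 460 kept their side of the threshold, 214 fell below it and 3 passed it anew: Penk with DESeq2, and Lars2 with no filter (adjusted p 0.000408) and with voom (0.0419). Nts reversed without PFC replicate 1; its log2 fold change ranged from -0.09 to 0.77 without 1 PFC library, with no call. The cause of these shifts was not tested. Of the genes tested, 158 were at 0 in all PFC and 134 in all NA libraries; absence and depth cannot be told apart for these.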
